A study of Mus musculus with 24 samples.

Results

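The effect of a paternal methyl donor-rich diet (MD) on gene expression in the hippocampus of the F1 offspring was examined in 12 of the 24 array samples of the series: 6 arrays of offspring of MD fathers (MD F1) and 6 of offspring of control diet fathers (CD F1). The arrays were chosen by their labels, and every gene on them entered the comparison. All mice were hybrids of C57BL/6J fathers and 129S6/SvEv mothers, with no engineered allele named, and by the labels were themselves fed a control diet. Their fathers received for 6 weeks before mating either a control diet (from Envigo) or 3MS ZM, a chow with added methionine (7.5 g), choline (15 g), betaine (15 g), folic acid (15 mg), vitamin B12 (1.5 mg) and zinc (150 mg). The labels give the offspring an age of 4 weeks, whereas the study's text describes its tests on adult mice. Each array held RNA pooled from 4 mice, so that single animals cannot be seen, and the sex of the mice in a pool is not given by the labels.

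Methionine, choline, betaine, folate and vitamin B12 feed the methionine cycle, in which methionine adenosyltransferase makes S-adenosylmethionine, the methyl donor of DNA and histone methylation. Offspring receive no nutrient from their father after conception, and differences between such groups are studied as possible inherited effects. The hippocampus is built of the granule cells of the dentate gyrus, the pyramidal cells of the fields CA1, CA2 and CA3, interneurons and glia, and it is needed for spatial and contextual memory. It borders the lateral ventricle, which is lined by ependymal cells bearing motile cilia and holds the choroid plexus. Motile cilia are built around an axoneme of microtubules, moved by dynein arms and made under the control of the transcription factor Foxj1 and factors of the RFX family.

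The signal is the background-subtracted intensity of each probe on the log2 scale, quantile-normalized over the 12 arrays. Of 39429 probes, 29637 were well above background on all 12 arrays and were tested, and 21123 of these belonged to 16115 named genes. A probe was called at a false discovery rate (FDR, the Benjamini-Hochberg adjusted p of limma) under 0.1. All listed markers of CA1 (14 of 14), dentate gyrus (15 of 15) and the CA2 and CA3 fields (21 of 21) were well above background on every array. Thalamus (13 of 15 markers), striatum (15 of 15) and choroid plexus (21 of 21) were also detected. The median intensity of an array ranged from 251 to 318 in CD F1 and from 167 to 262 in MD F1. MD F1 replicate 6 had the lowest median intensity and stood apart from the other arrays. Its mean correlation with them was 0.981, against 0.993 to 0.995 for the other 11 arrays. A sex measure, the mean log2 signal of 4 Y-linked genes minus that of Xist, lay between -2.30 and -1.89 in CD F1. In MD F1 it lay between -2.15 and 0.15, highest in replicate 6. There Xist was at 9.05 (10.80 to 10.99 in CD F1). Of the Y-linked genes, Ddx3y was at 9.95 there (9.999 to 10.29 in CD F1), Eif2s3y at 12.93 (11.85 to 12.27) and Kdm5d at 8.60 (7.12 to 8.31). In replicate 6 the parts of the measure thus differed in direction, with Ddx3y just below the CD F1 range. The measure was -0.78 in MD F1 replicate 4, with Xist at 9.98, Ddx3y at 10.48, Eif2s3y at 12.36 and Kdm5d at 7.78. It was -1.31 in MD F1 replicate 2, with Xist at 10.51, and between -2.15 and -1.72 in MD F1 replicates 1, 3 and 5. Whether the measure reads the sexes in a pool was not tested. Nothing states that the pools came from separate litters, so that p-values measure the spread between these pools only.

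In MD F1 hippocampus 71 probes were called (limma, FDR under 0.1), which is 0.240% of all tested, with 22 higher (0.0742%) and 49 lower (0.165%). They included 17 named genes that rose and 26 that fell. Changes were small: the median size of a called change was 0.51 on the log2 scale, with a median SE of 0.09, and 1 called probe changed by more than 1. The groups did not overlap for 66 of the 71 probes, where 0.952% of all tested probes lay higher and 1.27% lay lower without overlap. At an unadjusted p under 0.05 stood 5240 probes (17.7%), 2656 of them higher (8.96%) and 2584 lower (8.72%). All 71 probes kept their direction within each of the 3 slides, where 40.9% of all tested probes had the same sign on all 3. The 71 were chosen by p on these same arrays. For the 66 without overlap the same sign on each slide follows from that, so that it is no separate support.

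The number of calls rested on single arrays. It was 677 without MD F1 replicate 6 (221 higher and 456 lower, 2.28% of tested probes), and all 71 probes were among these. It was 349 without CD F1 replicate 1, 174 without MD F1 replicate 1 and 34 without MD F1 replicate 4. It fell to 4 without CD F1 replicate 5, to 1 without CD F1 replicate 6 and to 0 without CD F1 replicate 2, 3 or 4 or MD F1 replicate 2, 3 or 5. The direction of all 71 probes was the same in each of these 12 fits, which share most of the arrays by which the probes were chosen. With the sex measure as a covariate no probe was called (3537 at an unadjusted p under 0.05), and the same held with the level of choroid plexus markers as a covariate (5049), while all 71 probes kept their direction in both.

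**Figure D1:**
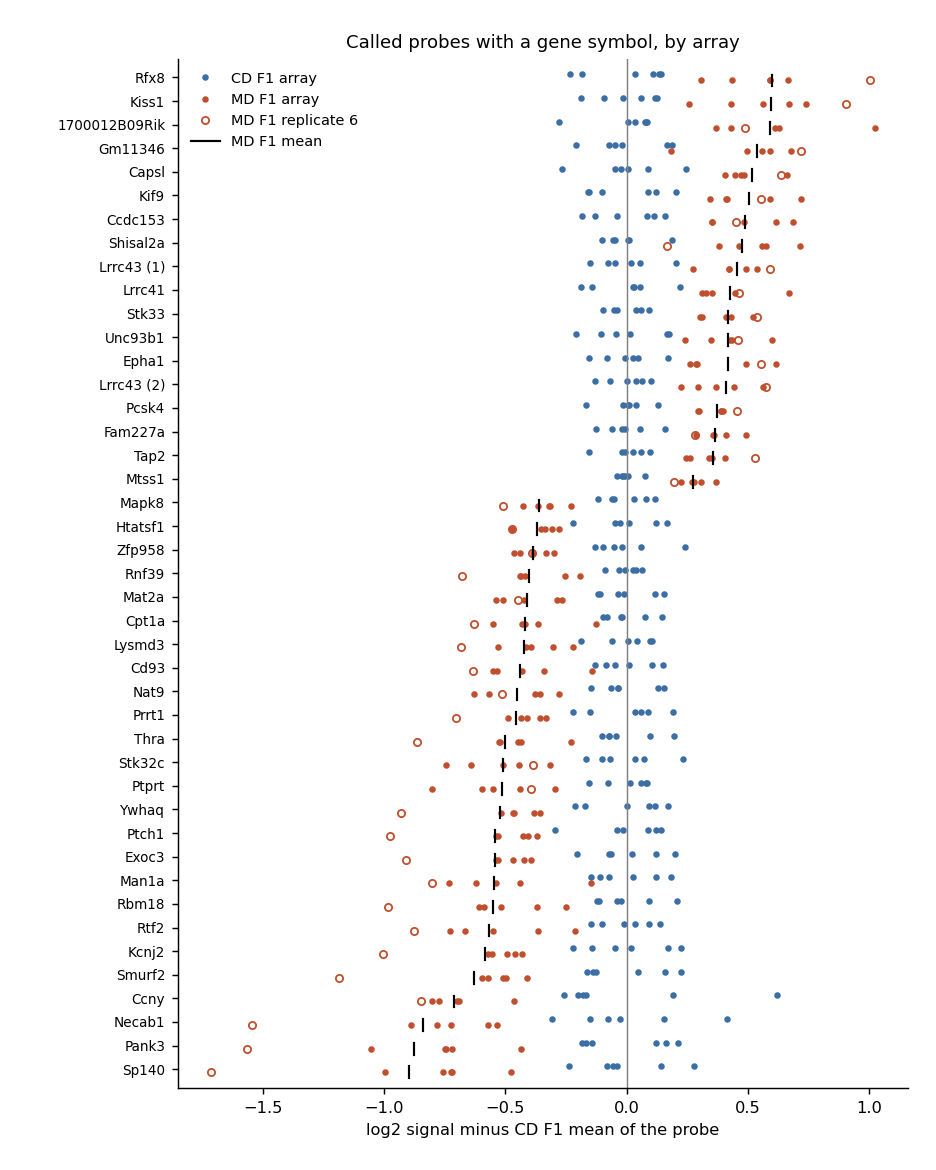
Each row is a called probe with a gene symbol (43 probes of 42 genes; Lrrc43 has 2), and each point an array, as log2 signal minus the CD F1 mean of that probe; CD F1 is blue, MD F1 red, MD F1 replicate 6 an open circle and the bar the MD F1 mean. The 18 probes that rose lie to the right and 25 that fell to the left, and MD F1 replicate 6 is the lowest MD F1 array in 19 of the 25.

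The genes that rose included several of the axoneme of motile cilia and flagella or of tissues that carry them. Kif9 encodes a kinesin of the axoneme, Ccdc153 is a marker of ependymal cells, Stk33 encodes a kinase needed in the sperm flagellum, and Pcsk4 encodes a proprotein convertase of germ cells. The promoters of 5 of these genes are shown because they hold GTTGCC, letters shared by the X-box sites that RFX factors recognize. The stretches are the 250 bases before the start site in RefSeq's promoter table (GRCm38.p6), 5′ to 3′ on the strand of the gene, in lower case with the match in capitals. A match on the other strand reads GGCAAC.
Kif9, chr9:110476744-110476993 (+ strand): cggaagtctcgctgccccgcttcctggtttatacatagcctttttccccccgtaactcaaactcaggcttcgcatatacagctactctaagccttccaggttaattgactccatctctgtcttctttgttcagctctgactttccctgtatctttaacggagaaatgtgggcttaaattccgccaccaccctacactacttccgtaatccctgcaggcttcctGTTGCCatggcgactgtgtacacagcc
Ccdc153, chr9:44240427-44240676 (+ strand): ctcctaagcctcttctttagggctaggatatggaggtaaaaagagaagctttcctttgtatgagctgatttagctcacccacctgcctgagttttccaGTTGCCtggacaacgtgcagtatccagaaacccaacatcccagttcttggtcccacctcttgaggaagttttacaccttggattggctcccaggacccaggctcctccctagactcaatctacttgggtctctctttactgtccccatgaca
Lrrc43, chr5:123489075-123489324 (+ strand): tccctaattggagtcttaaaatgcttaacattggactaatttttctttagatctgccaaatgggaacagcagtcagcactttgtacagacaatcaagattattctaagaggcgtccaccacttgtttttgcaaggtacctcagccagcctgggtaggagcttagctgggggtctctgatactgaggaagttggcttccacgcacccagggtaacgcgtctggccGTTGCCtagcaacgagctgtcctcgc
1700012B09Rik, chr9:14771031-14771280 (- strand): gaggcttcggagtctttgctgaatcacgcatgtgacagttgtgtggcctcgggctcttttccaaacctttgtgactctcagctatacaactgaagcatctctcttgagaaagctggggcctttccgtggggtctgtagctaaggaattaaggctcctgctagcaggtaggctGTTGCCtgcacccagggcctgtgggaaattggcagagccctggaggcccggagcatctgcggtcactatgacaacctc
Fam227a, chr15:79658957-79659206 (- strand): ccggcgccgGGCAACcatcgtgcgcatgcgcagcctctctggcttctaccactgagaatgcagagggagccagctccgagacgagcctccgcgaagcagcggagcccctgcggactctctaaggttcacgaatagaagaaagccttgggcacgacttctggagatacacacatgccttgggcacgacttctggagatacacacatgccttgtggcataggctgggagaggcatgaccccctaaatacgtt
The match began 27 bases before the start site in Kif9 and 26 bases before it in Lrrc43. It lay farther upstream in 1700012B09Rik (78 bases), Ccdc153 (152 bases) and Fam227a (241 bases), and in Fam227a it lay on the other strand. Of the 17 genes that rose, 11 had a promoter in the table, and 5 of these 11 (45.5%) held the motif on either strand. Among the 26 genes that fell, 21 had a promoter and 3 of them (14.3%) held it. Among all 27025 genes of the table the share was 11.8%, and among the 62 genes with a promoter of the motile cilia list described below it was 35.5% (22 genes). The motif was chosen with the genes known and was the only motif searched, and a match does not show that a factor binds.

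Kif9 signal was 7.001, 7.15 and 7.36 (lowest, median and highest) in CD F1 and 7.50, 7.64 and 7.88 in MD F1. Every MD F1 array lay above every CD F1 array, and Kif9 rose by 0.51 ± 0.09 (log2, SE; limma FDR = 0.0808). The other 3 probes of Kif9 had log2 fold changes of 0.46, 0.36 and 0.22 and were not called. Ccdc153 was at 9.97, 10.17 and 10.31 in CD F1 and at 10.50, 10.62 and 10.84 in MD F1. The groups did not overlap, and the rise of 0.49 ± 0.08 was nearly the same on the 3 slides (0.49, 0.50 and 0.48). Lrrc43, which encodes a protein with leucine-rich repeats, was measured by 2 probes and both were called. The first was at 8.09, 8.23 and 8.44 in CD F1 and at 8.51, 8.70 and 8.83 in MD F1, a rise of 0.46 ± 0.08, and the second rose by 0.41 ± 0.08. Neither probe overlapped between the groups.

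Stk33 was at 8.34, 8.44 and 8.53 in CD F1 and at 8.74, 8.86 and 8.98 in MD F1. It had the smallest p of the named genes and rose by 0.42 ± 0.06 without overlap (limma FDR = 0.0808), and its other probe had a log2 fold change of 0.46 ± 0.14 (FDR = 0.164). Capsl, which encodes a calcyphosine-like protein with EF-hand domains, was at 7.95, 8.20 and 8.46 in CD F1 and at 8.62, 8.69 and 8.87 in MD F1, and it rose by 0.52 ± 0.08. Pcsk4 rose by 0.37 ± 0.06, with 8.79, 8.97 and 9.09 in CD F1 and 9.25, 9.35 and 9.41 in MD F1. In all 3 genes the highest CD F1 array was below the lowest MD F1 array. Fam227a rose by 0.36 ± 0.06 and 1700012B09Rik by 0.59 ± 0.11, again without overlap between the groups.

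The remaining genes that rose belong to other kinds. Kiss1, which encodes the kisspeptin peptides that stimulate GnRH neurons, was dim, with 5.77, 5.98 and 6.08 in CD F1 and 6.21, 6.57 and 6.86 in MD F1. It rose by 0.59 ± 0.10, or 1.51-fold, without overlap, whereas its other probe had a log2 fold change of 0.30 ± 0.15 (FDR = 0.334). Rfx8, a member of the RFX family, was at 6.02, 6.33 and 6.40 in CD F1 and at 6.56, 6.85 and 7.26 in MD F1. It rose by 0.60 ± 0.11 (FDR = 0.0900), and by 0.51 without MD F1 replicate 6. Genes of antigen handling were Tap2, a subunit of the peptide transporter for MHC class I molecules, which rose by 0.36 ± 0.07, and Unc93b1, a chaperone of endosomal Toll-like receptors, which rose by 0.42. Mtss1, which encodes a protein linking the membrane to actin, had the smallest change and the smallest spread, with 8.23, 8.26 and 8.35 in CD F1 and 8.47, 8.55 and 8.64 in MD F1. Its rise was 0.27 ± 0.05, and its other probe had a log2 fold change of 0.05. The receptor tyrosine kinase Epha1 (0.42), Lrrc41 (0.43), Shisal2a (0.48) and Gm11346 (0.54) were also called, and in Shisal2a and Gm11346 the groups overlapped.

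Among the genes that fell, Mat2a, Pank3 and Cpt1a encode metabolic enzymes. Mat2a encodes the catalytic subunit of the methionine adenosyltransferase of tissues outside the liver. It was bright, with 14.51, 14.61 and 14.78 in CD F1 and 14.09, 14.19 and 14.36 in MD F1, and fell by 0.41 ± 0.07 (limma FDR = 0.0808) without overlap between the groups. Its second, dimmer probe had a log2 fold change of -0.29 ± 0.11 (FDR = 0.217), and this was -0.54, -0.34 and -0.01 on slides 1, 2 and 3. Mat2b, the regulatory subunit, stood at -0.02 ± 0.08, and at 0.04 under 75th percentile scaling. The liver gene Mat1a was well above background on no array. Pank3, a pantothenate kinase that starts the synthesis of coenzyme A, was at 8.09, 8.26 and 8.48 in CD F1 and at 6.70, 7.52 and 7.83 in MD F1. It fell by 0.88 ± 0.16, or 1.84-fold, and by 0.74 without MD F1 replicate 6, which was its lowest array. Cpt1a, the carnitine palmitoyltransferase that admits fatty acids to mitochondria, fell by 0.42 ± 0.08 on the called probe, and its other probe stood at -0.02 ± 0.07.

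Further genes that fell act in neurons and at membranes. Kcnj2, the inward rectifier potassium channel Kir2.1, was at 5.27, 5.48 and 5.72 in CD F1 and at 4.49, 4.97 and 5.07 in MD F1. It fell by 0.59 ± 0.11 (FDR = 0.0834) without overlap, and by 0.50 without MD F1 replicate 6. Ptprt, a receptor tyrosine phosphatase of synapses, was at 5.08, 5.28 and 5.32 in CD F1 and at 4.44, 4.74 and 4.94 in MD F1, and it fell by 0.51 ± 0.09. Its other, brighter probe had a log2 fold change of -0.41 ± 0.12 (FDR = 0.152). Prrt1, which encodes a protein associated with AMPA receptors, fell by 0.46 ± 0.09 without overlap, from a median of 9.47 to a median of 8.999. Exoc3, a subunit of the exocyst that tethers vesicles, fell by 0.54 ± 0.10 on the called probe, from 9.61, 9.79 and 10.01 in CD F1 to 8.90, 9.31 and 9.42 in MD F1. Its other, brighter probe stood at -0.13 ± 0.11 (limma FDR = 0.543). The exocyst genes of the presynaptic list that were not called lay on both sides of 0, among them Exoc6 at -0.54 and Exoc7 at 0.35. Necab1, a neuronal calcium-binding protein, fell by 0.84 ± 0.17, and by 0.70 without MD F1 replicate 6.

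Another set takes part in signalling, transcription and the turnover of proteins. Thra, the thyroid hormone receptor alpha, fell by 0.50 ± 0.10, from 10.48, 10.53 and 10.78 in CD F1 to 9.72, 10.10 and 10.35 in MD F1, with no overlap. Its second probe stood at -0.13 ± 0.07. Mapk8, the stress-activated kinase JNK1, fell by 0.36 ± 0.07, whereas its other 2 probes stood at 0.00 and 0.07. Ptch1, the receptor of hedgehog ligands, fell by 0.54, and Smurf2, a ubiquitin ligase of the TGF-beta pathway, by 0.63. The other probes of Smurf2 stood at -0.11 and -0.02. Sp140, a nuclear body protein known from leukocytes, had the lowest called log2 fold change with a symbol, -0.90 ± 0.17. It was at 8.17, 8.36 and 8.69 in CD F1 and at 6.70, 7.67 and 7.93 in MD F1, and fell by 0.73 without MD F1 replicate 6. Its other 2 probes stood at -0.27 and 0.13. The kinase Stk32c (-0.51), the mannosidase Man1a (-0.55), the cyclin Ccny (-0.71), Cd93 of endothelium (-0.44) and the 14-3-3 protein Ywhaq (-0.52) were also called. So were Nat9, Rtf2, Zfp958, Rnf39, Htatsf1, Lysmd3 and Rbm18, which fell by 0.45, 0.57, 0.39, 0.40, 0.37, 0.43 and 0.55 on the called probe. Other probes stood at -0.13 to -0.06 for Ywhaq, 0.11 for Nat9, and -0.15 and 0.26 for Rtf2. Those of Zfp958, Htatsf1 and Rbm18 stood at -0.19, -0.05 and -0.10.

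The remaining 27 called probes have no symbol in the table used here. They hold the 3 probes with the smallest FDR (0.0474), all of which fell: A_55_P2334927 by 0.46 ± 0.06, A_55_P2252891 by 0.52 ± 0.07 and A_55_P2333126 by 0.59 ± 0.08. A_55_P2334927 was at 13.43, 13.46 and 13.53 in CD F1 and at 12.82, 13.04 and 13.09 in MD F1, so that the gap between the groups was wider than the range of either. Probes A_55_P2094044 and A_55_P2184429 fell by 0.43 and 0.40. The called probe with the largest change, A_55_P2209273, fell by 1.27 and ranged from 7.15 to 8.01 in CD F1 and from 5.42 to 7.06 in MD F1.

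**Figure D2:**
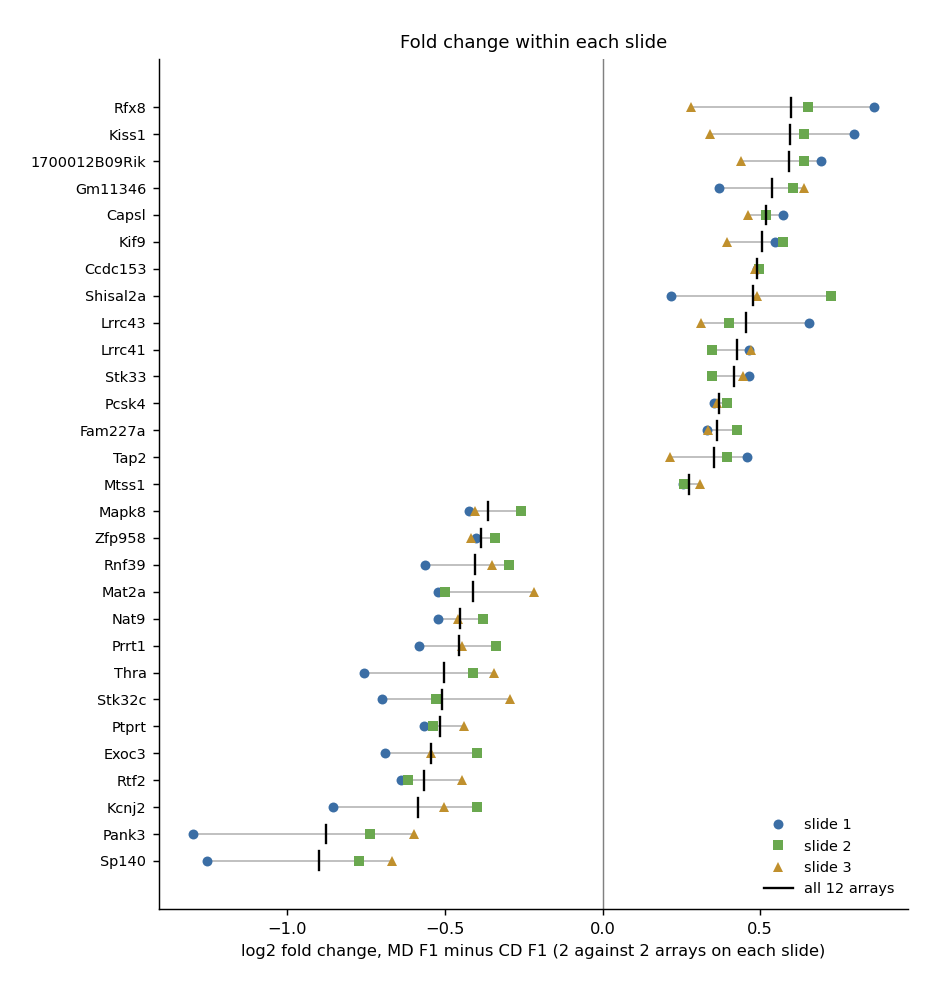
Log2 fold change of MD F1 minus CD F1 within each slide (2 against 2 arrays; circles, squares and triangles for slides 1, 2 and 3) and over all 12 arrays (black bars), for 15 genes that rose and 14 that fell, those with the smallest p. All 29 genes have the same sign on the 3 slides, which their choice by p on these same arrays favours. Ccdc153 varies least among the 15 that rose (0.48 to 0.50), and Pank3 lies between -1.30 and -0.60.

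Further probes of the called genes were also measured. Among the genes that rose, 5 had 7 further tested probes that were not called (Lrrc43, with both of its probes called, is left out), and all 7 had a positive log2 fold change, with a median of 0.30 where the called probes of those genes had 0.42. Among the genes that fell, 15 had 22 further probes, of which 17 were negative, and their median was -0.10 against -0.51 for the called probes. Only 4 of the 22 lay at -0.2 or below, those of Man1a (-0.54), Ptprt (-0.41), Mat2a (-0.29) and Sp140 (-0.27), and 1 of Rtf2 stood at 0.26. Of these further probes, 5 of the 7 and 15 of the 22 were brighter than the called one. The called probes were selected by their p, so that their values are expected to be the larger ones, and the array does not tell which transcript forms a probe reads.

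**Figure D3:**
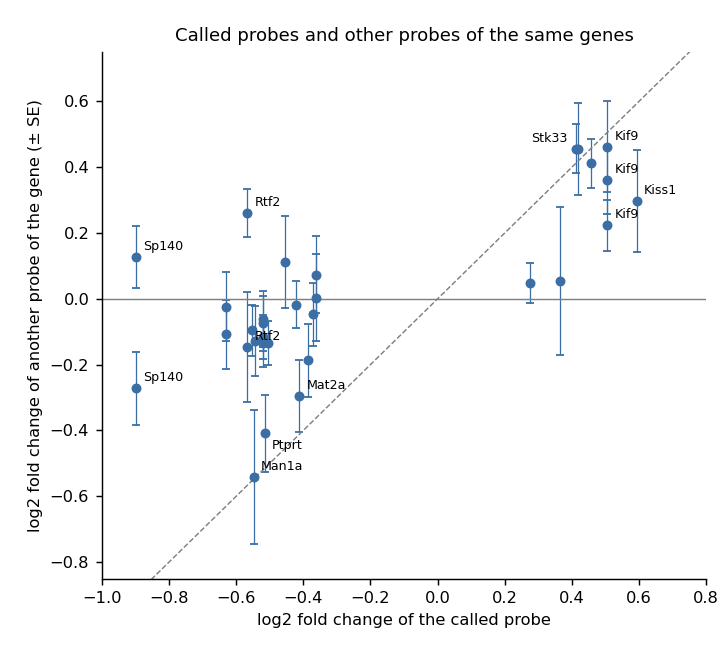
Log2 fold change of further probes of a called gene (y axis, with SE) against that of its called probe (x axis); the dashed line marks equal values. Points on the right, genes that rose, lie above 0 (0.05 to 0.46, with both called Lrrc43 probes plotted against each other), whereas most points on the left, genes that fell, lie near 0, except Man1a, Ptprt, Mat2a and 1 probe of Sp140.

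The cilia genes were then examined through a list of axonemal and cilia-building genes that leaves out Kif9, Stk33, Capsl, Lrrc43 and Fam227a. The brightest probe of a gene stood for it. Its values were read from the fit of all tested probes. On that basis 0.174% of 16115 genes were called (0.0869% higher and 0.0869% lower) and 16.0% had an unadjusted p under 0.05. A positive log2 fold change was seen in 56.5%, and the median was 0.02. A separate fit on 1 probe per gene called 0 (limma, smallest FDR 0.113). Of 94 listed genes 77 were tested, none was called, 70 (90.9%) were positive and the median was 0.25. At an unadjusted p under 0.05, 35 were higher and 2 lower, where 9.88% and 6.12% of all genes were. In 8 of the 77 every MD F1 array lay above every CD F1 array (1.14% of all genes), and in none did every MD F1 array lie below (0.863% of all genes). Without MD F1 replicate 6, 10 of the 77 were called, all higher, where 309 of all 16115 genes were (145 higher and 164 lower). Leaving out any 1 array kept the median of the list between 0.20 and 0.28.

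The cilia genes with the smallest p were Cfap161 (0.45 ± 0.09, limma FDR = 0.114), Meig1 (0.33 ± 0.08) and Dnaic2, an intermediate chain of outer dynein arms (0.40 ± 0.10). Dnaic2 was at 7.34, 7.59 and 7.81 in CD F1 and at 7.83, 7.98 and 8.15 in MD F1, without overlap. Foxj1 was at 9.56, 9.81 and 9.996 in CD F1 and at 10.06, 10.12 and 10.701 in MD F1, also without overlap, and its log2 fold change was 0.47 ± 0.12 (FDR = 0.137). Further values by role were 0.29 for Dnah10 (a dynein heavy chain), 0.34 for Dnaaf3 and 0.30 for Zmynd10 (dynein arm assembly), 0.46 for Rsph1 and 0.28 for Rsph9 (radial spokes), 0.27 for Spag6l (central pair) and 0.49 for Tekt1 (a tektin). The largest was Tctex1d4, a dynein light chain gene, at 0.66 ± 0.16. Spef2 at -0.84 and Efcab1 at -0.32 were the 2 lower ones at that p. None of these genes passed FDR 0.1.

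The ependymal markers held 10 tested genes, all positive, with a median of 0.29. Ccdc153 was called, and Foxj1 and Enkur (0.27) also lay without overlap. The mean level over the 10 markers was 9.36, 9.504 and 9.64 in CD F1 and 9.52, 9.75 and 10.19 in MD F1, where replicate 6 was the lowest. Choroid plexus markers moved with these genes but were far more variable between arrays. Of 21 markers 20 were positive and their median was 0.39, but none was called. At an unadjusted p under 0.05 none was higher and 1 was lower, Slc4a10 at -0.25. The mean level of the 21 markers ranged from 8.06 to 10.21 in CD F1 and from 8.09 to 11.23 in MD F1, and the groups overlapped over most of this range. The most abundant markers were Enpp2 (0.31), which is also in the oligodendrocyte list, and Ttr (0.46, with -0.35 without CD F1 replicate 4 and 1.36 without MD F1 replicate 4), which encodes transthyretin. The median over the 21 markers was 0.36, 1.06 and 0.00 on slides 1, 2 and 3, while that of the cilia list was 0.30, 0.32 and 0.15 and that of the ependymal markers 0.27, 0.43 and 0.26. Slide 3, with 2 arrays a group, thus had the lowest median of all 3 lists, and the values there of genes that were called over all arrays were 0.48 for Ccdc153, 0.45 for Stk33, 0.46 for Capsl and 0.40 for Kif9. With the choroid plexus level as a covariate the medians were 0.20 for the cilia list, 0.28 for the ependymal markers and 0.03 for all genes, and Ccdc153 stood at 0.50. More ciliated cells and more RNA of these genes per cell cannot be told apart in pooled tissue.

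**Figure D4:**
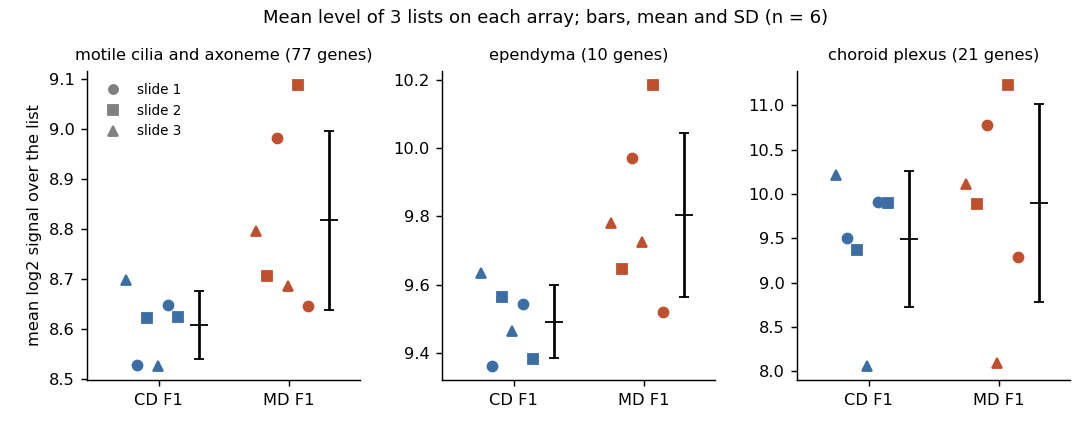
Mean log2 signal over 3 gene lists on each array (circles, squares and triangles for slides 1, 2 and 3; bars, mean and SD of 6 arrays). The levels of the cilia list and of the ependymal markers are highest in MD F1 replicates 5 and 3 and overlap between the groups, and the choroid plexus markers vary over a range of 8.06 to 10.21 within CD F1.

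Genes of neurons and astrocytes showed small shifts to the other side, and few of them were called. Of 53 tested genes of presynaptic release 11 were positive (20.8%), with a median of -0.08. Of 61 genes of postsynaptic scaffolds and long-term potentiation 14 were positive (23.0%), with a median of -0.07. Members below 0 included Nsf, an ATPase that takes SNARE complexes apart (-0.36 ± 0.09, without overlap), Syt1, the calcium sensor of release (-0.41), and Prkaca, a catalytic subunit of protein kinase A (-0.35). None passed FDR 0.1. Adcy8, a calcium-activated adenylyl cyclase (0.27), and Exoc7 (0.35) lay on the positive side. Markers of GABAergic interneurons were positive in 4 of 23 (median -0.13), with Cnr1, the cannabinoid receptor, at -0.39 and Nos1 at -0.42. CA1 markers were positive in 3 of 14 (median -0.13, and -0.086 without MD F1 replicate 6), and here Man1a was called while Wfs1 stood at -0.25 without overlap. Dentate markers were positive in 3 of 15 (median -0.08). Of 23 astrocyte markers 2 were positive (median -0.09), with the glutamate transporter Slc1a2 at -0.61 and Gfap at -0.35. Slc1a2 was lowest in MD F1 replicate 6 and stood at -0.26 with the sex measure as a covariate. Without replicate 6, Slc1a2 stood at -0.44 and the astrocyte median at -0.07. These medians depended on the slide. They were -0.13, -0.13 and 0.02 on slides 1, 2 and 3 for presynaptic release, -0.12, -0.12 and 0.01 for postsynaptic genes, -0.24, -0.20 and -0.01 for interneurons, -0.25, -0.12 and 0.05 for CA1, -0.23, 0.02 and -0.06 for the dentate gyrus, and -0.08, -0.15 and 0.01 for astrocytes. Bright genes as a whole also stood lower after quantile normalization: the share of positive values was 60.01% in the dimmest quartile of genes and 50.2% in the brightest, which held 40 of the 61 postsynaptic genes and 28 of the 53 presynaptic ones. Scaled to the 75th percentile of each array, the order turned, with a median of -0.06 in the dimmest quartile and 0.07 in the brightest, and the medians of both lists were -0.03.

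Lists of ion channels and receptors held 1 called gene. Of 80 potassium channel genes Kcnj2 was called and the median was -0.01. Kcnf1, a silent subunit of voltage-gated channels (0.41), and Kcnn2, a small-conductance calcium-activated channel (0.16), lay higher without overlap, and neither was called. The probe of Kcnmb2, an auxiliary subunit of BK channels, that the study lists as lower in MD F1 passed the background criterion on 6 CD F1 and 5 MD F1 arrays. It was therefore not tested, and a filter of this kind can leave out a probe that falls towards background. The study also reports lower Kcnmb2 by qPCR in separate samples. The second probe of Kcnmb2, A_55_P2112524, was tested and stood at -0.0019 ± 0.16 (0.35, -0.29 and -0.07 on slides 1, 2 and 3). Among calcium, sodium and HCN channels none of 39 was called. The T-type calcium channel Cacna1i stood at 0.43 ± 0.09 (limma FDR = 0.120) and Cacna1s at 0.31 without overlap. Of 40 glutamate receptor genes 21 were positive and none was called, with Grin2b at -0.63 and Shisa7, an auxiliary protein of synaptic receptors, at 0.31. Of 27 genes of GABA receptors, synthesis and transport 9 were positive (33.3%) and none was called, and the median was -0.07 (-0.12, -0.13 and 0.07 on slides 1, 2 and 3).

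The genes of methyl metabolism other than Mat2a did not move together. Of 50 tested genes of one-carbon, methionine and choline metabolism 27 were positive, the median was 0.01 and Mat2a alone was called. Values with an unadjusted p under 0.05 were Fpgs, which traps folates in the cell (0.27), Shmt2 (0.22) and Mthfd1l (0.23) of mitochondrial folate metabolism, Sardh (0.22) and Chdh (0.36) of the choline and betaine pathway, Chkb (0.15), and Ahcy, which clears S-adenosylhomocysteine (-0.26). Of 21 genes of polyamines and methionine salvage 10 were positive, with Oaz1 at -0.32. In DNA methylation and demethylation 14 of 28 were positive, the median was 0.00 and none was called. The lowest p there belonged to Tdg, the glycosylase that removes oxidized methylcytosine, which was at 8.65, 9.02 and 9.07 in CD F1 and at 7.97, 8.47 and 8.66 in MD F1 (-0.51 ± 0.11, FDR = 0.128). Zbtb38, which binds methylated DNA, stood at -0.42 without overlap. Both genes were lowest in MD F1 replicate 6. Without it Tdg stood at -0.42 and Zbtb38 at -0.31, and with the sex measure as a covariate they stood at -0.32 and -0.21. In histone methylation 22 of 52 were positive and none was called, with the methyltransferases Nsd2 at -0.34, Kmt5b at -0.37 and Suv39h1 at -0.53. Suv39h1 was lowest in MD F1 replicate 6 and stood at -0.36 without it and at -0.13 with the sex measure as a covariate.

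Imprinted genes, whose activity depends on the parent of origin, were positive in 26 of 59 (median -0.02), and none was called. Mest, expressed from the paternal allele, was at 10.58, 10.73 and 10.98 in CD F1 and at 9.52, 10.24 and 10.50 in MD F1, a difference of -0.58 ± 0.14 (limma FDR = 0.129) without overlap. Without MD F1 replicate 6 it was -0.44. Zdbf2, also expressed from the paternal allele, stood at -0.39, Htr2a at -0.60 without overlap and Peg3 at -0.63. Circadian clock genes were positive in 15 of 23 (median 0.09), and none was called. Of the 23, 3 lay higher and 1 lower without overlap, where 1.14% and 0.863% of all genes did. The median was 0.03 without MD F1 replicate 6. Dbp, an output gene of the clock, was at 14.25, 14.41 and 14.71 in CD F1 and at 14.72, 14.75 and 14.90 in MD F1 (0.35 ± 0.08, FDR = 0.119). Per1 (0.18) and Bhlhe40 (0.25) lay higher and Rora (-0.32) lower, all without overlap, and the hour at which tissue was taken is not given in the sources used here.

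The other lists held few calls and small medians. The coenzyme A list had Pank3 as its single called gene among 34. Immediate early genes were positive in 12 of 41 (median -0.09), with Dusp5 at -0.59 and Nr4a3 at -0.66. The glucocorticoid and stress list had a median of -0.07, with Nr3c1, the glucocorticoid receptor, at -0.24 without overlap. Cholesterol synthesis stood at -0.09 and glycolysis at -0.03 (0.05 under 75th percentile scaling). Of 44 proteasome genes 32 were positive (median 0.05, with 0.021 without MD F1 replicate 6 and 0.11 under 75th percentile scaling), with Psme1 at 0.23 without overlap. Ribosomal proteins (median 0.03) and oxidative phosphorylation (-0.01) lay close to the median of all genes, and under 75th percentile scaling they stood at 0.15 and 0.10. Cell division and neurogenesis (0.01), splicing (0.00), heat shock (-0.02), microglia (-0.01), oligodendrocytes and myelin (-0.02), thalamus (-0.03), striatum (-0.02) and cortex and subiculum (0.03) lay near 0, and endothelium, pericytes and meninges stood at -0.07. Blood genes had a median of -0.27, which was 0.74, -1.13 and -0.26 on slides 1, 2 and 3.

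**Figure D5:**
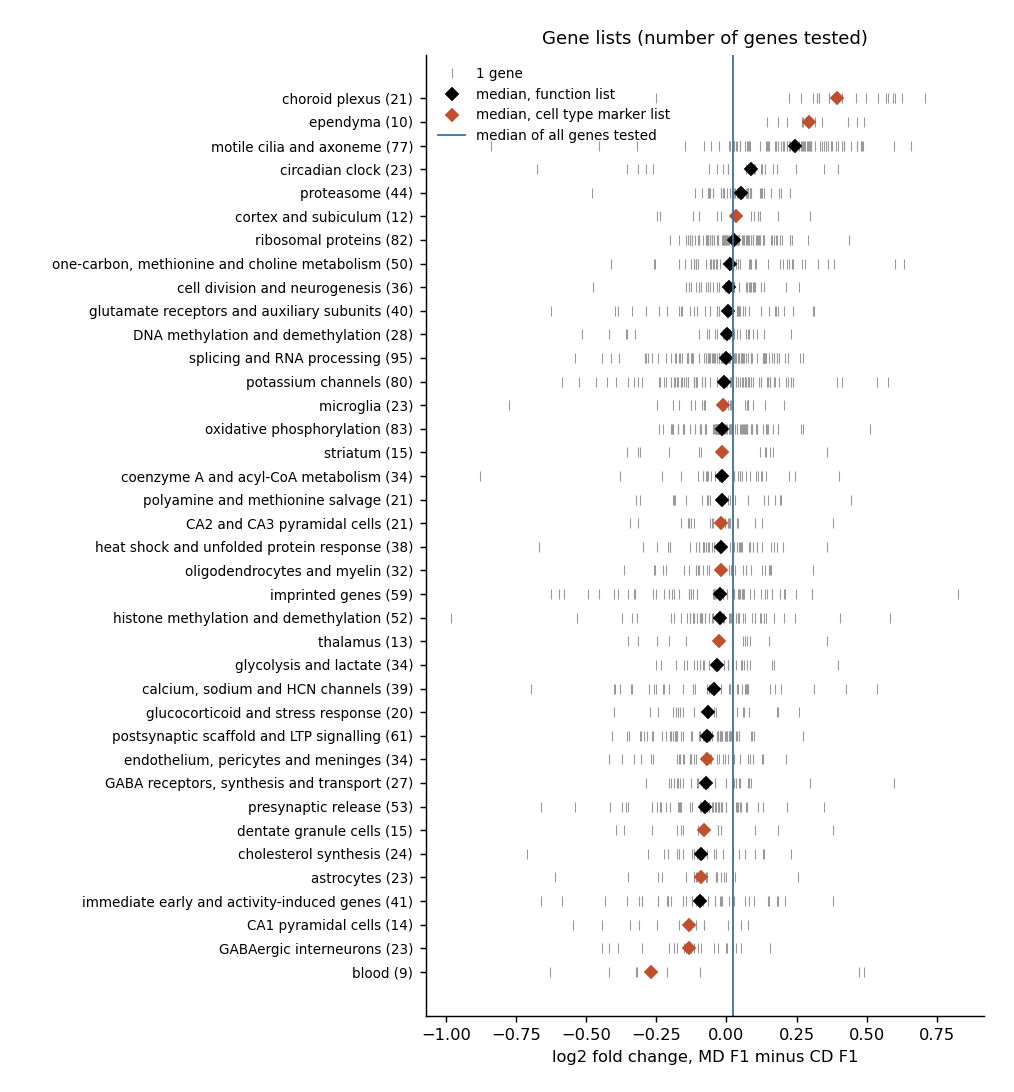
Log2 fold change of every tested gene of 38 lists (grey ticks) with the median of each list (black, function lists; red, cell type markers) and the median of all genes tested (blue line, 0.02). Choroid plexus (0.39), ependyma (0.29) and motile cilia (0.25) have the highest medians, and blood (-0.27), GABAergic interneurons (-0.13) and CA1 pyramidal cells (-0.13) the lowest.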

How the data were processed

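Total RNA of pooled hippocampi was hybridised to Agilent 1-color mouse arrays, 6 per group. The intensities deposited by the authors are the processed signal of Agilent Feature Extraction (10.7.3.1 per the file headers; the methods name another version), background-subtracted, detrended, linear and not scaled between arrays. Each of 3 slides carried 2 arrays of each group, and all were scanned on 1 day. Control spots and 1939 spots marked irregular were left out, repeated spots were averaged on the log2 scale, arrays were quantile-normalized, and probes well above background on all 12 arrays were fitted with limma 3.58.1 (R 4.3.3) on group means. The methods name the log2 scale, quantile normalization and limma; both filters were set here. Probes were matched to symbols through RefSeq accessions (26055 of 39429).

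The 38 gene lists and the genes described were chosen with earlier results of these data known. The genes named were the 15 with the smallest p in each direction, 5 probes without symbol, up to 3 genes per list and the genes of the study's table; the other called genes, and list members outside this rule, were named after their values were seen. Alternatives covered scaling, the table of intensities that the authors deposited after normalization, background correction (normexp on median signals, since mean signals were not used here), filters, slides, replicate numbers, the sex measure, variance models, array weights, thresholds and each array left out; the choroid plexus level was added after seeing the data. The fit was tested on simulated data. Depth is given as median intensity; the number of arrays limits precision. The F2 arrays are not analysed here. Of the genes that the rule names, 2 are not reported here.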

Additional observations from a re-analysis of the deposited data

Results flagged for a closer look

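Of 146 sets of 6 values (array measures, list levels and called probes in each group), 11 held an array far from the other 5 by Dixon's test at the 95% level, where chance gives about 1 in 20, or 7.3 sets. MD F1 replicate 6 was that array in 7 of the 11. Its mean correlation with the other arrays was 0.981, where the other MD F1 arrays had 0.993 to 0.995, and its score on the first principal component was 90.7, where they had -7.05 to 4.59. Its mean level of the cholesterol synthesis list was 11.11 (others, 11.24 to 11.30), of the DNA methylation and demethylation list 10.57 (10.71 to 10.76), and of the histone methylation and demethylation list 11.56 (11.65 to 11.70). Its log2 signal was 8.90 for Exoc3 (others, 9.27 to 9.42) and 4.49 for Kcnj2 (4.93 to 5.07). Outside these sets, it was at 7.61 for Smurf2 (others, 8.20 to 8.38) and at 5.93 for Ptch1 (6.37 to 6.53). Over all called probes, replicate 6 was the lowest MD F1 array in 35 of the 49 that fell. It was the highest in 11 of the 22 that rose. MD F1 replicate 4 was far from the others in the list of GABA receptors, synthesis and transport, at 11.66 (others, 11.48 to 11.55), and in oxidative phosphorylation, at 15.01 (15.08 to 15.12). CD F1 replicate 5 was far from the others in the astrocyte markers, at 13.12 (13.02 to 13.05), and CD F1 replicate 2 in 1700012B09Rik, at 7.54 (7.82 to 7.90). The part of these arrays in the group differences was not tested beyond the values without them.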

How the results depend on the processing

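The 71 calls (22 higher and 49 lower) became 3 with 75th percentile scaling (0 higher and 3 lower), 3 with normexp, 3 with slide as a random block, 3 with limma-trend and 3 at an FDR under 0.05. They became 41 for probes well above background on at least 6 arrays, 11 with no filter on dim probes (of 39429) and 7 with slide as a fixed block. They became 0 with 1 probe per gene (limma, smallest FDR 0.113; of 16115, 2678 had an unadjusted p under 0.05), 0 when the sex measure was a covariate (3537) and 0 when the choroid plexus level was (5049). Within slides 1, 2 and 3, with 4 arrays each, limma called 0, 0 and 0 (1096, 3114 and 1703 at an unadjusted p under 0.05). They rose to 636 at an FDR under 0.15 and to 1857 with array weights, in which MD F1 replicate 6 had a weight of 0.13. Leaving out 1 array gave 0 to 677. With the replicate number as a block limma called 0 (4950 at an unadjusted p under 0.05; all 71 probes kept their direction), but the numbers are not shown to pair the samples: correlations of same-numbered arrays were -0.19 to 0.29. The authors' processed table (71), irregular spots kept (71) and a robust variance prior (71) stayed within 1.5 times. No called probe changed direction under any alternative computed for it, but these probes were chosen by p on the same arrays. Of the list members described and not called, Dnaaf3 and Enpp2 stood at -0.023 and -0.11 within slide 3, Efcab1 and Nos1 at 0.013 and 0.045 within slide 2, and Ttr at -0.47 with the choroid plexus level as a covariate and at -0.35 (without CD F1 replicate 4) to 1.36 (without MD F1 replicate 4) when 1 array was left out. Mat2b stood at 0.037 with 75th percentile scaling, 0.012 with normexp, 0.10 within slide 3 and -0.063 (without CD F1 replicate 1) to 0.015 (without CD F1 replicate 5) when 1 array was left out. The median of the glycolysis list was 0.05 with 75th percentile scaling, and the sex measure as a covariate gave the circadian list a median of -0.02. The cause was not tested. Dim probes have no usable value here, and changes under about 0.3 were called in Mtss1 alone of the named genes.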
